A study of Mus musculus with 32 samples.

Results

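The comparison described here sets mesenteric lymph node against peripheral lymph node in CD30L transgenic mice. It holds 8 arrays of the 32 in the series, 4 of each node, and each of the 4 transgenic mice gave both nodes. The members were chosen by group label and mouse number alone. Every animal was a C57BL/6 female of 12 weeks. Animals labelled transgenic, called transgenic here, are described as overexpressing CD30 ligand (CD30L, gene symbol Tnfsf8) constitutively in T cells, and the construct is named CD2-CD30L, after a promoter active in T cells. The 8 lymph node arrays of non-transgenic littermates, called wild type here, came from 4 other mice and gave the site difference that the transgenic one was set against. The labels state neither how many founder lines the transgenic mice represent nor whether the nodes of one animal were pooled, so the p-values measure the spread between these mice only. The overexpression was not seen on the arrays. The only Tnfsf8 probe set stood, on the scale of the 16 lymph node arrays, at 6.39 ± 0.04 (SD, n = 4) in transgenic and 6.45 ± 0.25 in wild type mesenteric nodes, and at 6.43 ± 0.04 and 6.42 ± 0.11 in peripheral nodes. Nor was it raised in spleen (6.60 ± 0.14 and 6.53 ± 0.04) or thymus (6.05 ± 0.48 and 6.16 ± 0.13), on the scale of all 32 arrays. Whether this probe set can read the transgene's transcript is not known from the sources used here, so it does not check the labels, and every genotype comparison rests on them.

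Lymph nodes that drain the gut meet food and microbial antigens all the time, and in an unimmunised mouse they hold standing germinal centres, the follicle regions where B cells divide, mutate their antibody genes and are selected. Nodes that drain the skin hold few of them in a mouse kept clean. CD30L is a TNF family ligand of activated T cells, its receptor CD30 (Tnfrsf8) is carried by some activated T and B cells, and the pair has been tied to T cell help for B cells. The question was how far the site difference in germinal centre and dividing-cell genes was closed in the transgenic mice.

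Each array was a whole-genome mouse oligonucleotide array. Values are log2 of the intensity plus 16 after quantile normalization, so 1 unit is a doubling for a bright probe set and less than a doubling for a dim one, and 4.00 is the floor, an intensity at or below 0. The trimmed mean intensity of the 16 lymph node arrays ran from 106 to 267, and their pairwise correlations from 0.899 to 0.985. B cell gene Ms4a1 and T cell gene Cd3e were at 11.90 to 12.38 and 9.97 to 10.67 on all 16, Glycam1, a product of the vessels through which lymphocytes enter nodes, at 12.98 to 13.35, and Madcam1, the gut addressin, separated mesenteric arrays (10.20 to 10.93) from peripheral ones (7.92 to 8.72). Some nodes carried other tissue. The mean of 15 exocrine pancreas genes was 12.53 and 12.37 in the mesenteric nodes of transgenic mice 1 and 3 and 13.21 in that of wild type mouse 2, against 4.89 to 5.34 on the other arrays. The mean of 20 skeletal muscle genes was 6.71 in the peripheral node of transgenic mouse 1, and 9.14 and 7.50 in those of wild type mice 1 and 3, against 5.22 to 5.46 elsewhere. The mesenteric array of transgenic mouse 1 also had an Actb 3' to 5' ratio of 3.10, against 1.52 to 2.09 on the other 15, so its RNA was more 3' biased. Some results, among them the medians of the 3 main lists, are therefore also given without these mice.

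**Figure D1:**
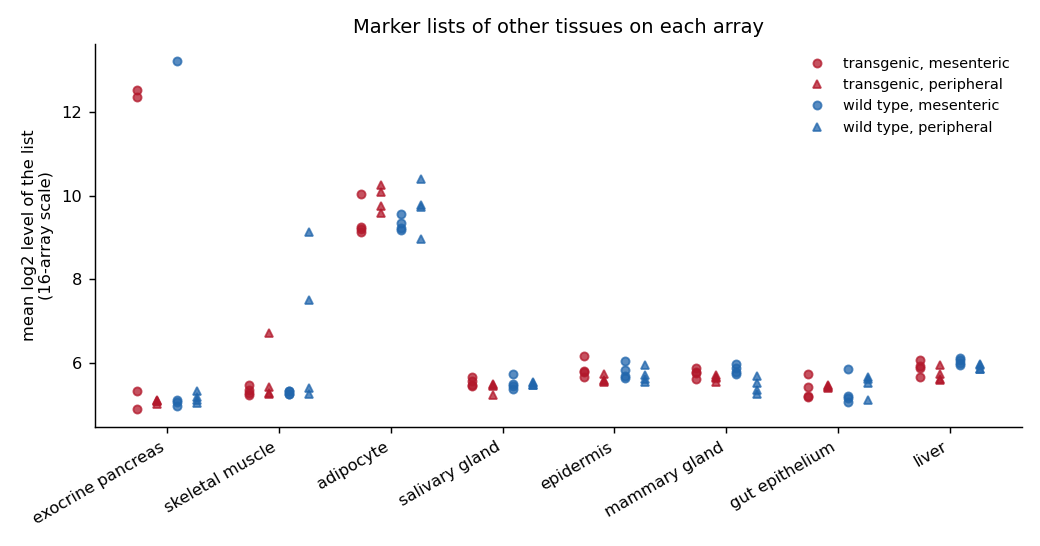
Mean log2 level of marker lists of 8 other tissues, on the scale of all 16 lymph node arrays; each point is 1 array, circles are mesenteric and triangles peripheral nodes, red is transgenic and blue wild type. Exocrine pancreas transcripts stand out on 3 mesenteric arrays and skeletal muscle transcripts on 3 peripheral arrays, while salivary gland, epidermis, mammary gland, gut epithelium and liver lists stay between 5.07 and 6.17 on every array.

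In the transgenic mice the germinal centre and dividing-cell genes still had positive median site differences, that is, they lay higher in the mesenteric than in the peripheral node. For mitosis genes the difference was smaller than in wild type mice under every scaling tried, while for the other lists that depended on the scaling. The median site difference of 32 measured mitosis genes was 0.59 on the log2 scale in transgenic mice and 0.95 in wild type mice, so that 61.9% of the wild type median remained. For 16 germinal centre B cell genes the medians were 0.31 and 0.41 (76.3%) and the means 0.42 and 0.78 (54.3%), because a few genes with very large wild type differences carried the mean. For 29 genes of DNA replication and S phase the medians were 0.38 and 0.49 (77.0%). The median over all probe sets was 0 in both genotypes. The median of transgenic minus wild type site difference was -0.36 for mitosis, -0.18 for germinal centre and -0.10 for S phase genes, with all probe sets at 0. With arrays scaled to a common median in place of quantile normalization, the site medians were 0.33 in transgenic and 0.23 in wild type mice for germinal centre genes and 0.35 and 0.30 for S phase genes, the opposite order, but 0.57 and 0.85 for mitosis genes. Transgenic minus wild type was then 0.0044, 0.0040 and -0.27, where the median of all probe sets had itself shifted by 0.15, so that the lists lay at -0.14, -0.14 and -0.42 relative to it. In these bulk samples, fewer cells of a type and less RNA per cell cannot be told apart.

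No member of the 3 lists passed the test in transgenic mice (limma with the mouse as a block, Benjamini-Hochberg adjusted p under 0.05), where 0.126% of 27022 tested probe sets did (0.0629% higher and 0.0629% lower in the mesenteric node). In wild type mice 5 germinal centre, 12 mitosis and 1 S phase genes passed, all of them higher in the mesenteric node, against 0.866% of the probe sets in either direction and 0.644% higher there. A call in one genotype only is not a test of the difference, and the test of the difference between the site differences called no probe set at all (0%), with 1442 of 27022 (5.34%) at an unadjusted p under 0.05 and 0 to 7 called under the alternatives tried. By direction, all 4 transgenic mice were higher in the mesenteric node for 21 of 32 mitosis, 18 of 29 S phase and 8 of 16 germinal centre genes, against 11.1% of all 18193 genes and 10.8% of tested probe sets. All 4 wild type mice were higher for 29, 21 and 10 of them, against 9.31% of genes and 12.8% of tested probe sets. The site difference was smaller in transgenic mice for 30 of 32 mitosis, 22 of 29 S phase and 12 of 16 germinal centre genes, against 38.7% of all genes and 45.8% of tested probe sets. For 10 mitosis genes, 2 germinal centre genes (Rgs13 and Mybl1) and 1 S phase gene (Gins2), every transgenic mouse had a smaller site difference than every wild type mouse, which held for 0.896% of all genes and 1.4% of tested probe sets.

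The mice were not alike. The mean site difference of the mitosis list was 0.63, 0.61, 0.78 and 0.13 in transgenic mice 1 to 4, and 0.92, 0.95, 0.72 and 1.03 in wild type mice 1 to 4. The groups overlapped, since transgenic mouse 3 lay above wild type mouse 3. The germinal centre list gave 0.40, 0.61, 0.62 and 0.05 in the transgenic and 0.85, 0.79, 0.66 and 0.84 in the wild type mice, with no overlap. Transgenic mouse 4 had nearly no site difference: it had the smallest of the 4 for 27 of 32 mitosis, 22 of 29 S phase and 12 of 16 germinal centre genes, against 26.3% of all tested probe sets. Its peripheral node was the highest of the 4 for 28 of 32 mitosis and 28 of 29 S phase genes, against 30.2% of tested probe sets. Its mesenteric node was the lowest of the 4 for 9 and 4 of them. The mesenteric node of mouse 1, whose array was the more 3' biased one, was the lowest for 17 and 17. The share of all probe sets with the lowest mesenteric value in a given mouse was not computed. Without mouse 4 the transgenic medians were 0.72 for mitosis, 0.37 for germinal centre and 0.46 for S phase genes. The median of transgenic minus wild type site difference was then -0.28, -0.06 and -0.03. For germinal centre and S phase genes most of this median was thus lost without that mouse. By list mean, however, the germinal centre values of transgenic mice 1 to 3 (0.40 to 0.62) still lay below every wild type mouse (0.66 to 0.85).

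**Figure D2:**
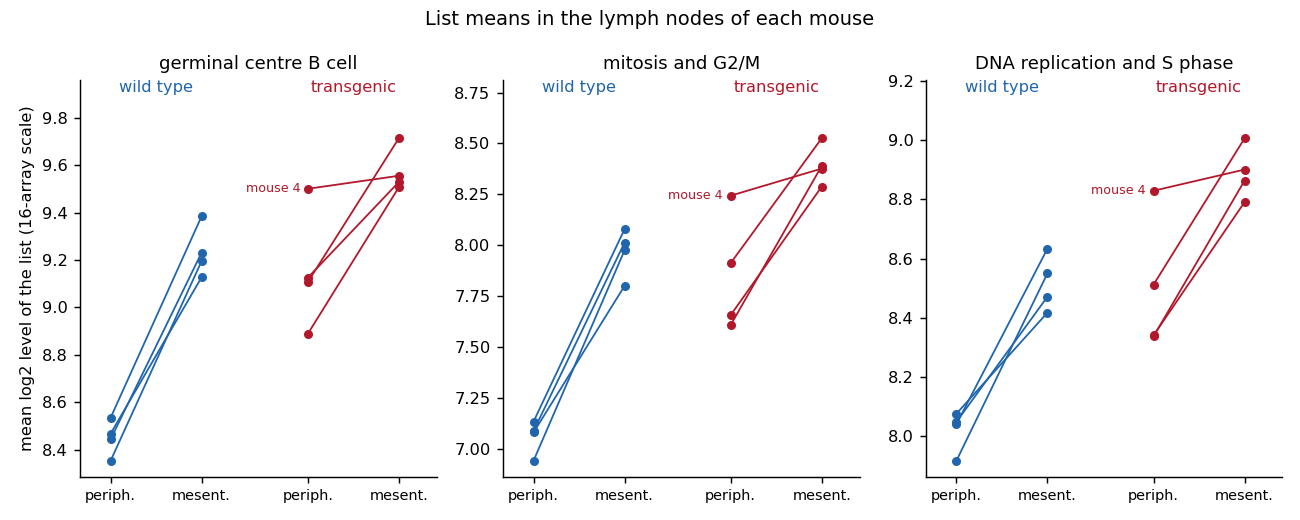
Mean log2 level of the 3 lists in the peripheral and mesenteric node of each mouse, on the scale of all 16 lymph node arrays; a line joins the nodes of 1 mouse, blue is wild type and red transgenic. The y axes do not start at 0; all 8 lines rise to the right, and the line of transgenic mouse 4 is nearly flat because its peripheral node is high.

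On the scale shared by all 16 arrays, the mitosis list stood at 7.06 ± 0.08 (SD, n = 4) in wild type peripheral, 7.97 ± 0.12 in wild type mesenteric, 7.85 ± 0.29 in transgenic peripheral and 8.39 ± 0.10 in transgenic mesenteric nodes. The transgenic peripheral minus the wild type mesenteric mean was -0.11, less than the SD of the former. The germinal centre list had the same order, with 8.45 ± 0.08, 9.24 ± 0.11, 9.16 ± 0.25 and 9.58 ± 0.09. The genotypes differed by 0.79 in the peripheral and 0.43 in the mesenteric node for mitosis, and by 0.71 and 0.34 for germinal centre genes, so levels were higher in both nodes and the gap at the peripheral node was the wider one. The S phase list differed by 0.48 and 0.37.

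Among germinal centre genes, Rgs13, a regulator of G protein signalling in germinal centre B cells, had the largest wild type site difference. In transgenic mice 1 to 4 its level was 10.03, 10.22, 10.09 and 10.05 in the mesenteric and 8.90, 8.66, 8.49 and 9.66 in the peripheral node. The groups did not overlap, and only the peripheral node of mouse 4 came near the mesenteric values. The site difference was 1.17 ± 0.23 (SE, n = 4 pairs, limma adjusted p = 0.189), or 2.25-fold, against 2.89 ± 0.14 (adjusted p = 0.00395), or 7.41-fold, in wild type mice. The difference between them was -1.75 ± 0.29, with an unadjusted p of 0.000233 and an adjusted p of 0.511 in limma, and every transgenic mouse (0.38 to 1.60) lay below every wild type mouse (2.58 to 3.29).

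Mef2b, which encodes a MEF2 family factor of the germinal centre, stood at 8.50, 8.83, 8.49 and 8.60 in the transgenic mesenteric and at 7.16, 7.26, 6.60 and 8.61 in the peripheral nodes. Mouse 4 had equal levels in its nodes, so 3 of 4 mice were higher in the mesenteric node. The site difference was 1.20 ± 0.33 (SE; limma adjusted p = 0.29) against 2.56 ± 0.23 (adjusted p = 0.0205) in wild type, a difference of -1.41 ± 0.44 (adjusted p = 0.843). Mybl1, a MYB family factor of dividing germinal centre cells, gave 0.78, 1.69, 1.49 and 0.40 in the transgenic mice, a mean of 1.09 ± 0.24 (SE; limma adjusted p = 0.229), against 2.08 ± 0.11 (adjusted p = 0.005) in wild type. Gcsam, a germinal centre signalling protein, was 1.04, 1.22, 1.11 and 0.18 across the 4 transgenic mice. Its wild type values lay closer together, at 1.45, 1.15, 1.30 and 1.38, and the difference of -0.45 ± 0.23 (SE) had a limma adjusted p of 0.843.

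Neil1, a DNA glycosylase, was the last of the 5 germinal centre genes called in wild type mice, with 0.94 ± 0.11 (SE; limma adjusted p = 0.036) there and 0.56 ± 0.13 (adjusted p = 0.251) in transgenic mice. None of the other 11 passed in either genotype. S1pr2, the receptor that holds B cells in the germinal centre, gave 0.54 in transgenic and 0.76 in wild type mice. Polh, an error-prone DNA polymerase, gave 0.37 and 0.48, Basp1 0.37 and 0.31, Plxnb2 0.25 and 0.18, the B cell coactivator Pou2af1 0.24 and 0.46, and Bcl6, the master regulator of the germinal centre fate, 0.20 and 0.35. Fas stood at 0.18 and 0.14, Gna13 at 0.01 and 0.06, Irf8 at 0.00 and 0.05, Efnb1 at -0.12 and 0.09 and Lmo2 at -0.18 and -0.22. Several of these, such as Bcl6, Fas and Irf8, are also made by other cells of the node, whereas Rgs13, Mef2b and Mybl1 are more narrowly tied to germinal centre B cells. Across the 16 genes the wild type and transgenic differences had a Pearson correlation of 0.957, a Spearman correlation of 0.965 and a slope of 0.453. Over 26356 probe sets tested in both, these were 0.513, 0.359 and 0.441. There the median absolute difference was 0.12 in transgenic and 0.16 in wild type mice, beside median SEs of 0.12 and 0.14. Most of those probe sets thus differ by about their error, so their correlation and slope are no yardstick for the list. These values describe genes, which are not replicates, and each genotype's values come from its own arrays.

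**Figure D3:**
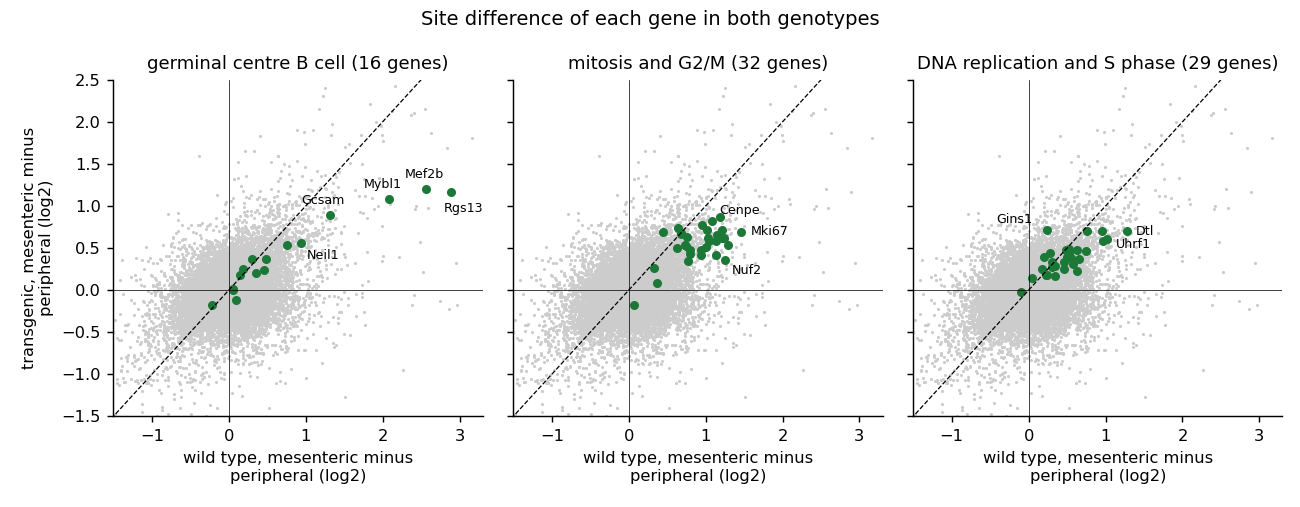
Site difference (mesenteric minus peripheral, log2) of each gene in wild type mice on the x axis and in transgenic mice on the y axis; green points are the members of a list, grey points all probe sets tested in both genotypes (a few lie outside the axes), and the dashed line marks equal differences. Most mitosis genes and the germinal centre genes with the largest wild type differences lie below the line, and Gins1 (0.71 against 0.23) lies above it.

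Mitosis genes are switched on together late in the cell cycle, and many of their promoters carry a CCAAT box (CCAAT, or ATTGG on the other strand), bound by the factor NF-Y, and a cell cycle homology region (CHR, TTTGAA, or TTCAAA), bound by complexes that hold such genes silent in resting cells. The promoters of the 3 members with the smallest transgenic p whose printed window holds both motifs are shown, as examples of how promoters of this list are built. None of the 3 genes passed the test in transgenic mice. Each runs from 250 bases before to 30 after the start, 5′ to 3′ on the gene's strand, from RefSeq on GRCm38.p6, with the letters of both motifs in capitals. Hmmr, at chr11:40733408-40733687 on the minus strand, encodes a spindle and hyaluronan-binding protein. Ccnb2, at chr9:70421525-70421804 on the minus strand, encodes cyclin B2, and Cdk1, at chr10:69352883-69353162 on the minus strand, encodes the kinase that drives entry into mitosis.
Hmmr: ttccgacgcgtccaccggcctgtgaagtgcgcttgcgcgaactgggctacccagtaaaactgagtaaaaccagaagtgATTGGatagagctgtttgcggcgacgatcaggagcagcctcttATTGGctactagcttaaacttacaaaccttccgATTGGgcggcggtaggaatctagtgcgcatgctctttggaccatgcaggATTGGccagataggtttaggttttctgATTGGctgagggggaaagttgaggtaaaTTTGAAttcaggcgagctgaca
Ccnb2: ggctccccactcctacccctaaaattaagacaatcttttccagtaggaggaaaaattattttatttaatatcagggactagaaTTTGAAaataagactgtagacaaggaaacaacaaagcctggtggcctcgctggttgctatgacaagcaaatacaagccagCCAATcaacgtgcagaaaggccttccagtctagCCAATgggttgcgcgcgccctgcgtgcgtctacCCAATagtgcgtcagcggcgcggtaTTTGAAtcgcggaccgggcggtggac
Cdk1: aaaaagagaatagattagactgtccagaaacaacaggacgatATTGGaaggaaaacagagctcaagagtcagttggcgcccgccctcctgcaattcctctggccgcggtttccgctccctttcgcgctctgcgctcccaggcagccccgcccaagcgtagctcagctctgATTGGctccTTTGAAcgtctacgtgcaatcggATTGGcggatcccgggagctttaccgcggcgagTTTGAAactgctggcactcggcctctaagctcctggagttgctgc
In the full window of 300 bases, which ends 50 bases after the start, 21 of 26 mitosis genes with an entry (80.8%) held a CHR match and 21 (80.8%) a CCAAT match, on either strand, and 19 (73.1%) held both. Of 27018 promoters in all, 18.1%, 37.9% and 7.12% did. The S phase list had 12.5%, 58.3% and 8.33% of 24 promoters, and the germinal centre list 21.4%, 28.6% and 7.14% of 14. The motifs do not overlap in their letters, and a match is a description of the sequence only.

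Hmmr had levels of 8.45, 8.58, 8.43 and 8.99 in the transgenic mesenteric and of 7.87, 8.11, 7.56 and 8.38 in the peripheral nodes. All 4 mice were higher in the mesenteric node, by 0.58, 0.48, 0.87 and 0.61, and the groups did not overlap. The site difference of 0.63 ± 0.10 (SE, n = 4 pairs; limma adjusted p = 0.127) lay near the 0.76 of wild type mice. Ccnb2 was higher in the mesenteric node of the transgenic mice by 0.86, 0.49, 1.11 and 0.41, with a mean of 0.72 against 1.02 in wild type. Cdk1 stood at 9.48, 9.93, 9.78 and 9.79 in the mesenteric and at 8.79, 9.13, 8.98 and 9.59 in the peripheral nodes, and the groups overlapped through mouse 4. Its site difference of 0.62 ± 0.13 (SE; limma adjusted p = 0.218) compared with 1.21 ± 0.13 (adjusted p = 0.0304) in wild type mice.

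The antigen Ki-67, encoded by Mki67 and used to count dividing cells, showed how mouse 4 differed. Its level was 10.45, 10.66, 10.44 and 10.38 in the transgenic mesenteric and 9.41, 9.73, 9.47 and 10.55 in the peripheral nodes. The peripheral node of mouse 4 was at the level of the mesenteric nodes. The site difference was 0.70 ± 0.23 (SE; limma adjusted p = 0.362) against 1.46 ± 0.14 (adjusted p = 0.0226) in wild type. Top2a, a topoisomerase, gave 0.59 and 1.14, and the kinetochore gene Nuf2 0.36 and 1.25, the widest gap of the 32. Mki67, Top2a and Nuf2 were outside the rule for naming genes and were picked after their values were seen. The kinetochore motor gene Cenpe gave 0.82 and 1.08, the cytokinesis gene Anln 0.54 and 0.73, and the phosphatase gene Cdc25c 0.69 and 0.44, the last being too dim for the test in wild type mice. Bub1b, a spindle checkpoint gene, was at 0.68 in each genotype and the kinase gene Aurkb at 0.67 and 0.69, nearly equal. Foxm1, whose product drives mitotic genes, was the lowest of the list in both, with -0.17 and 0.07, and was also picked after its value was seen. The other mitosis genes named, apart from Mki67, Top2a and Nuf2, were chosen by smallest transgenic p, which favours larger values in transgenic mice.

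Genes of DNA replication differed less between genotypes by the list median of transgenic minus wild type site difference, -0.10 against -0.36 for mitosis genes. Those named here were chosen by smallest transgenic p, which favours larger values in transgenic mice. The replication licensing gene Cdc6 stood at 7.45, 7.80, 7.39 and 7.59 in the transgenic mesenteric and at 6.57, 7.03, 6.68 and 7.15 in the peripheral nodes, with no overlap. The site difference was 0.70 ± 0.10 (SE; limma adjusted p = 0.12) against 0.96 in wild type. Uhrf1, which copies DNA methylation marks, gave 0.84, 0.81, 0.72 and 0.08 in the 4 transgenic mice, with mouse 4 far below the others, and a wild type mean of 1.01. The DNA polymerase gene Pole gave 0.71 and 0.76, the ligase gene Lig1 0.48 and 0.63, the ribonucleotide reductase gene Rrm1 0.48 and 0.52, and the helicase gene Mcm6 0.40 and 0.50. Dtl, which helps to degrade licensing factors, gave 0.70 and 1.28, but the mesenteric node of wild type mouse 2, which carried pancreas transcripts, was at the floor, and without that mouse the wild type mean was 1.93. Gins1, a helicase subunit gene, went the other way, with 0.71 in transgenic and 0.23 in wild type mice, a difference of 0.46 ± 0.22 (SE; limma adjusted p = 0.843).

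Antibody genes had a list median of -0.31 in transgenic and 0.98 in wild type mice over 5 measured genes of 14, so each median is the value of 1 probe set. The list means were 0.13 and 1.62, and the list mean of transgenic mice 1 to 4 was 0.06, -0.40, 0.45 and 0.45, so the sign in transgenic mice is not settled. None was called in transgenic and 2 in wild type mice, and none passed the test of the difference (smallest limma adjusted p = 0.35). Igha is the constant region of IgA, the antibody class of the gut. The brightest of its 3 probe sets was at 13.36, 13.37, 13.33 and 13.39 in the transgenic mesenteric and at 10.78, 12.16, 10.95 and 10.70 in the peripheral nodes. The mesenteric values lay close together near the top of the scale, and mouse 2 had the highest peripheral value. Whether the signal is saturated there was not tested, and if it is, the differences that follow are lower bounds. The site difference was 2.21 ± 0.27 (SE; limma adjusted p = 0.0839) against 3.85 ± 0.23 (adjusted p = 0.00658) in wild type mice. Ighm, the symbol of the IgM constant region, had 11 probe sets, of which 9 were tested, and these did not all measure the same thing. For the 4 among the smallest p for the difference between genotypes, the transgenic site difference lay between -0.23 and -0.12, while in wild type mice the mesenteric node was higher by 2.74 to 3.75 (limma adjusted p = 0.0247 to 0.0271). Transgenic minus wild type site difference was -3.88 to -2.86, with limma adjusted p of 0.35 to 0.429.

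In the Ighm probe set with the widest gap, the transgenic mesenteric nodes were at 10.41, 11.37, 10.83 and 11.46 and the peripheral nodes at 11.60, 11.07, 10.37 and 11.48. The 4 mice were split, with mesenteric higher in mice 2 and 3 and lower in mice 1 and 4, and the difference averaged -0.12 ± 0.29 (SE; limma adjusted p = 0.916), so its sign is not settled. The probe sets of Ighm disagreed: the brightest one, at 12.73 to 13.26 on all transgenic arrays, gave -0.31 in transgenic and 0.00 in wild type mice, another bright one -0.34 and -0.02, and a further one, lower in the mesenteric node of all 8 mice, -1.27 and -0.63. Immunoglobulin genes form a family with near-identical members, so probe sets can read more than one of them. The brightest of 3 probe sets of Iglv1, a light chain variable gene, was lower in the mesenteric node of all 4 transgenic mice, by -1.16, -0.66, -0.51 and -0.61, and higher in that of all 4 wild type mice, by 0.52, 0.49, 1.14 and 0.79, with a difference of -1.48 ± 0.20 (SE; limma adjusted p = 0.35). Another Iglv1 probe set was higher in the mesenteric node of all 8 mice, by a mean of 0.74 in transgenic and 0.70 in wild type mice, and the third gave -0.05 and 0.10, so the contrast holds for 1 probe set and not for the gene. Igk, a light chain gene, had 4 tested probe sets, and only the 1 that represents it is given here. It gave -0.71 ± 0.43 (SE; limma adjusted p = 0.596) in transgenic mice. These mice were split, at -1.43, -1.74, 0.74 and -0.42, so the sign there is not settled. In wild type mice it gave 0.98 ± 0.12 (SE; limma adjusted p = 0.0376). The difference of -1.69 ± 0.49 (SE) had a limma adjusted p of 0.843. Beside these, 1 probe set without a symbol in the annotation used, picked after its values were seen, had the smallest adjusted p of all for the difference (0.0914), with a site difference of 1.54 in transgenic and 4.13 in wild type mice.

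**Figure D4:**
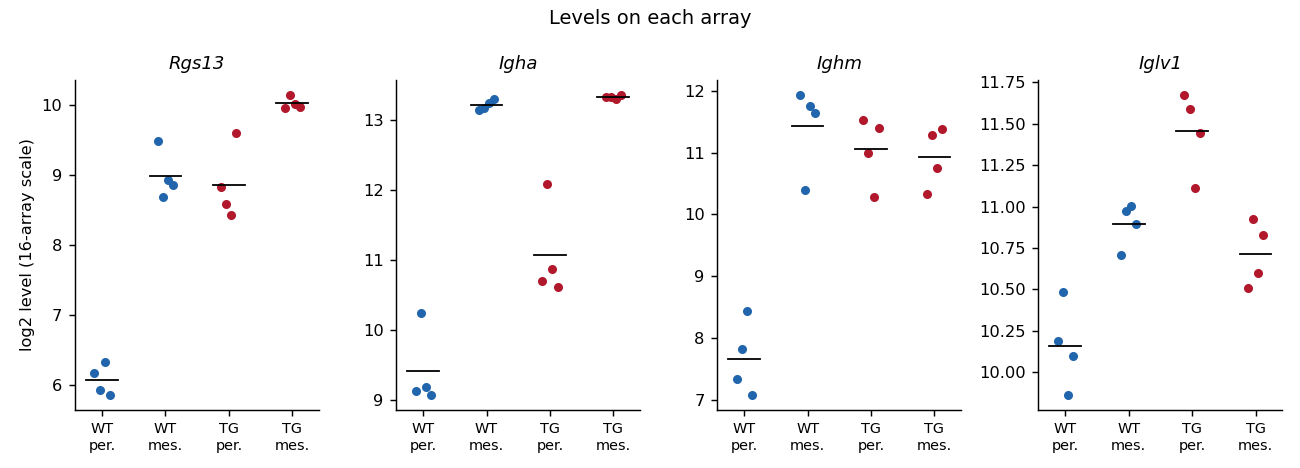
Level (log2, scale of all 16 lymph node arrays) of Rgs13 and of probe sets of Igha, Ighm and Iglv1 on each array; points are mice, horizontal lines group means, WT is wild type, TG transgenic, per. peripheral and mes. mesenteric. The y axes do not start at 0. For Rgs13 the transgenic peripheral nodes lie about where the wild type mesenteric nodes do, for this Ighm probe set both transgenic nodes do, and for Iglv1 the transgenic peripheral nodes lie above all others.

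Plasma cells, which secrete antibody, showed a mixed pattern. Their list of 20 genes had a median site difference of 0.23 in transgenic and 0.38 in wild type mice, with 0 and 2 genes passing the test. Eaf2 gave 0.87, 0.44, 1.53 and 0.18 in the transgenic mice, a mean of 0.76 against 1.99 in wild type (limma adjusted p = 0.0102 there), and Derl3, a gene of the secretory pathway, 1.02 against 2.10. Tnfrsf17, the receptor BCMA of plasma cells, was an exception, with 1.06 ± 0.13 (SE; limma adjusted p = 0.0774) in transgenic and 0.59 in wild type mice. The plasma cell factor Irf4 gave 0.29 and 0.50.

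Follicular helper T cells, which support germinal centres, had list medians of 0.02 and -0.10 over 14 genes. Il21, their cytokine, gave 0.85, 0.92, 1.27 and -0.05 in the transgenic mice, again with mouse 4 apart, and a wild type mean of 1.22 (limma adjusted p = 0.0473). Tox2 gave 0.46 and 0.44 and Sostdc1 -0.79 and -0.67. The B cell list had medians of -0.13 and -0.09 over 14 genes, with Fcer2a, the IgE receptor of follicular B cells, at -0.46 and -0.08. T cell genes were lower in the mesenteric node in both genotypes, with medians of -0.29 and -0.40 over 16 pan T cell genes. None of these lists had a gene that passed the test in transgenic mice. The T cell genes Trat1 and Thy1 were at -0.63 and -0.53 in transgenic mice, and among naive T cell genes Dapl1 was at -1.10 and the interleukin receptor gene Il7r at -0.57. The regulatory T cell list had medians of 0.00 and -0.08 over 14 genes, with Izumo1r, a folate receptor family gene, at 0.71 and Gpr83 at 0.42 in transgenic mice.

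The site difference that did pass the test in transgenic mice comprised 34 probe sets, 17 higher and 17 lower in the mesenteric node, and the wild type test called 234, with 174 higher and 60 (0.222%) lower. With a common median the split was 46 higher and 30 lower in transgenic and 148 and 99 in wild type mice, and with values as deposited 68 and 428, and 120 and 155. Leaving out transgenic mouse 1, 2, 3 or 4 left 18, 2, 2 or 0 calls, and leaving out wild type mouse 1, 2, 3 or 4 left 17, 87, 19 or 15. Of the 34, 24 (70.6%) were also called in wild type mice, against 0.866% of all tested probe sets. The 24 are 10.3% of the 234. The genotypes share no arrays here. Of the 174 probe sets higher in wild type mesenteric nodes, 102 were higher in all 4 transgenic mice, against 10.8% of tested probe sets. The medians of the 174 were 1.18 in wild type and 0.66 in transgenic mice. Of the 60 lower ones, 52 were lower in all 4 transgenic mice, against 10.3% of tested probe sets. The medians of the 60 were -1.30 and -0.96. These sets were chosen on the wild type values, which favours larger values there. Of the 17 called higher in transgenic mice, 15 were higher in all 4 wild type mice, against 12.8% of tested probe sets. The medians of the 17 were 1.34 in transgenic and 1.42 in wild type mice.

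Of 17 genes of the gut homing list, 12 had positive site differences in transgenic mice, with a median of 0.36, and 1 passed the test. Madcam1, the vascular address that guides lymphocytes to the gut, stood at 10.47, 10.50, 10.59 and 10.63 in the transgenic mesenteric and at 8.16, 7.99, 8.26 and 8.06 in the peripheral nodes. The groups lay far apart, and the site difference of 2.43 ± 0.09 (SE, n = 4 pairs; limma adjusted p = 0.00705), or 5.38-fold, compared with 2.16 ± 0.09 in wild type. Nkx2-3, the factor that switches on Madcam1, was at the floor in all 4 transgenic peripheral nodes and at 5.96, 6.87, 6.46 and 6.83 in the mesenteric ones, and was too dim overall for the test. Genes of vitamin A handling, which makes the retinoic acid that imprints gut homing, were close to the threshold: Aldh1a2 at 2.08 ± 0.21 (SE; limma adjusted p = 0.067), Aldh1a1 at 2.31 ± 0.23 (adjusted p = 0.067) and the retinol transporter gene Stra6 at 2.62 ± 0.24 (adjusted p = 0.0637). The wild type differences were 2.37 for Aldh1a2, 1.22 for Aldh1a1 and 2.08 for Stra6. In wild type mice Madcam1, Nkx2-3 and Aldh1a2 passed.

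Other rises in the transgenic mesenteric node were Upk3b, a mesothelial gene at the floor in every transgenic peripheral node and at 7.54 to 8.44 in the mesenteric ones, Asb2 at 2.00 ± 0.13 (SE; limma adjusted p = 0.0257) and Lum, a collagen-binding matrix gene, at 1.95 ± 0.13 (adjusted p = 0.0257). Lum stood at 10.11 to 10.30 in the mesenteric and at 7.99 to 8.48 in the peripheral nodes, without overlap. Dnah2 rose by 1.84, Gpnmb, a glycoprotein of macrophages, by 1.73, the fibroblast collagen gene Col14a1 by 1.35, the imprinted noncoding RNA Meg3 by 1.30 and the growth factor gene Clec11a by 1.23. Ttc6 rose by 1.33 ± 0.11 (SE; limma adjusted p = 0.0423), while the wild type mice gave 1.17, -0.66, 0.15 and -0.16. That gap of 1.18 ± 0.36 (SE) had a limma adjusted p of 0.843. Cd163, a macrophage scavenger receptor gene, rose by 1.12 (adjusted p = 0.035). Of 8 lymphatic endothelial genes the median was 0.68 in transgenic and 0.83 in wild type mice, and only Madcam1, which is on this list too, passed in transgenic mice. Reln gave 1.05, Flt4 0.83 and Lyve1 0.73, all short of the threshold in limma (adjusted p = 0.067 to 0.199), and wild type values were 1.32, 0.86 and 1.00.

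Of 9 mast cell genes, 6 of them tested, 2 passed the test as lower in the mesenteric than in the peripheral node of transgenic mice. In wild type mice 4 did, against 0.0629% and 0.222% of tested probe sets. All 4 transgenic mice were lower there for 5 of the 9, against 10% of all genes, and the list median was -0.78. Cpa3, a mast cell protease, stood at 8.27, 8.13, 7.74 and 7.88 in the transgenic peripheral nodes and at 4.44, 4.00, 4.00 and 4.00 in the mesenteric ones, where 3 arrays were at the floor. It had the smallest adjusted p (0.00158 in limma) among named genes, and its size of -3.89 depends on the constant added before the logarithm. Cma1, mast cell chymase, gave -3.52 (adjusted p = 0.0246), Mcpt4 -3.39 and Tpsb2 -2.28 (adjusted p = 0.067 and 0.0774), and the wild type values were -3.84, -2.73 and -2.74. These sizes too depend on the constant, since Cma1 was at the floor on 2 and Mcpt4 on 3 transgenic mesenteric arrays. Ccl8, a chemokine of dermal macrophages, was at 11.82, 11.26, 12.17 and 11.74 in the peripheral and at 8.45, 8.06, 8.28 and 8.15 in the mesenteric nodes. The groups lay far apart, with a difference of -3.51 ± 0.13 (SE; limma adjusted p = 0.00705) against -3.84 in wild type. Ccl12, another monocyte chemokine, stood at -2.17 in transgenic and -3.52 in wild type mice, a gap of 1.42 ± 0.38 (SE) with a limma adjusted p of 0.843.

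The macrophage phosphatidylserine receptor gene Timd4 fell by 1.98 ± 0.12 (SE; limma adjusted p = 0.0246), the lectin gene Cd209d by 2.20, Cbr2 by 2.42, the growth factor gene Ptn by 2.20 and the skin dendritic cell gene Cldn1 by 1.42. Their wild type differences were -2.12, -2.83, -2.64, -2.27 and -1.60. Cldn1 was the lowest of the skin dendritic cell list and the only 1 called in transgenic mice. That list of 9 genes had medians of 0.01 in transgenic and -0.18 in wild type mice, with 5 positive in transgenic mice. Bpifb2 was at the floor in all mesenteric nodes and at 7.09 to 7.98 in the transgenic peripheral ones. Over 14 macrophage genes the medians were 0.20 in transgenic and 0.32 in wild type mice, with 10 positive in transgenic mice. Only Cd163 and Timd4 of this list were called there. Adgre1, the F4/80 antigen, at 0.69 and the scavenger receptor gene Marco at 0.59 did not pass. High endothelial venule genes had medians of -0.21 in transgenic and -0.26 in wild type mice over 16 genes, with 7 positive in transgenic mice. On this list Fut7, which builds selectin ligands, was at -0.94, Ubd at -0.54, Emcn at -0.54 and Selp at 0.50, none past the threshold. Reticular stroma genes had medians of 0.05 in transgenic and 0.07 in wild type mice over 14 genes, with 8 positive in transgenic mice. Lum was the only 1 of this list called there, while Pdpn was at 0.42 and Dcn at 0.41.

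**Figure D5:**
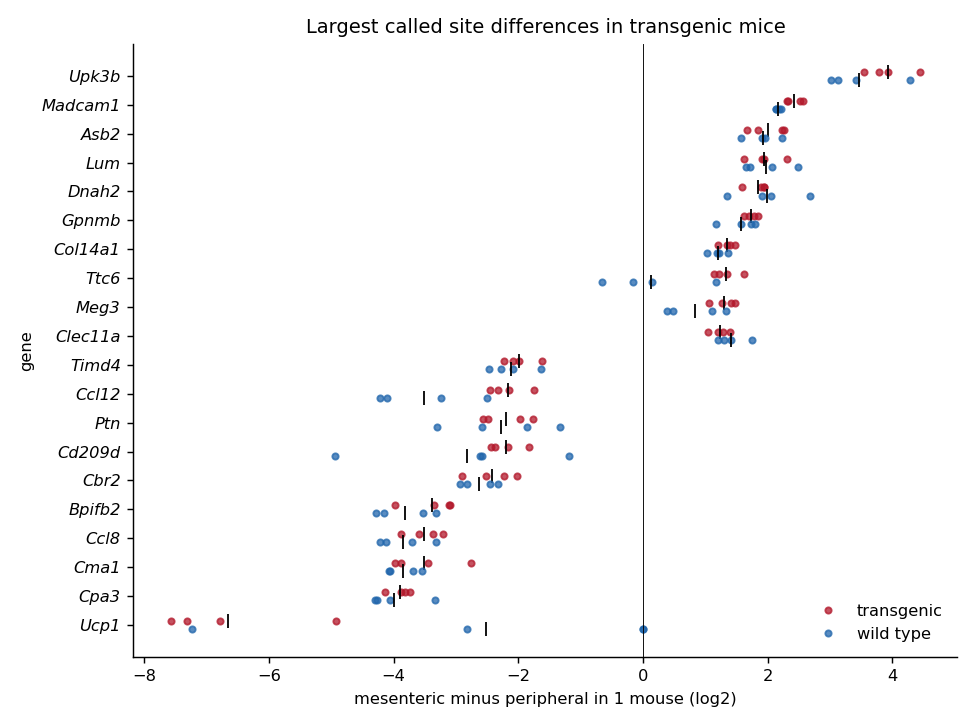
Site difference (log2, mesenteric minus peripheral in 1 mouse) of the 10 largest rises and 10 largest falls called in transgenic mice; red points are the 4 transgenic mice, blue points the 4 wild type mice and black ticks the means. The genotypes overlap for most genes, while for Ttc6 and Ucp1 some wild type mice are at or near 0 and for Upk3b, Bpifb2 and Ucp1 one node is at the floor, so that the size is not a fold change.

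Cytotoxic and neutrophil genes had negative list medians in both genotypes (-0.64 and -0.55 over 10 cytotoxic, -0.98 and -0.28 over 11 neutrophil genes), and no member of these lists passed the test. Klra7, an NK cell receptor gene outside the lists and picked after its values were seen, was called in transgenic mice. It was at -1.20 (limma adjusted p = 0.0246) there and at -1.12 in wild type mice. Klrd1, an NK cell receptor gene, was at -0.78 (limma adjusted p = 0.0762), Gzma at -0.71, Nkg7 at -0.66 and Ccl5 at -0.62 in transgenic mice. The neutrophil genes S100a8 and S100a9 were at -2.13 and -2.22, against -1.19 and -1.77 in wild type. Interferon response genes had list medians of -0.16 in transgenic and -0.68 in wild type mice over 11 genes, with Irf7 at -0.39 and -0.45, and none was called.

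The adipocyte list of 13 genes had a median of 0.16 in transgenic and 0.12 in wild type mice, with 9 positive in transgenic mice and 1, Ucp1, called. Ucp1, the uncoupling protein of brown fat, was at the floor in all 4 transgenic mesenteric nodes and at 8.93, 11.31, 11.57 and 10.79 in the peripheral ones (limma adjusted p = 0.0269). In wild type mice it was at or below 0 in all mesenteric and 2 of 4 peripheral nodes, so the wild type mice differed among themselves. Cidea, another brown fat gene, gave -4.84 ± 0.68 (SE) and did not pass (limma adjusted p = 0.106), and Retn and Adipoq, made by white fat as well, gave 1.52 and 0.71. In the mesenteric nodes of mice 1 and 3 the pancreas gene Cela2a and the other members of its list were high, at 13.08 and 13.07 for Cela2a against 5.97 and 6.44 in mice 2 and 4, and none of the list was called. The muscle gene Ttn was at -0.47 and the milk protein gene Csn2 at 1.68, against 2.84 in wild type. Without mice 1 and 3 and wild type mouse 2, which leaves 2 transgenic mice, 1 of them mouse 4, the medians for mitosis, germinal centre and S phase genes were 0.40, 0.26 and 0.28 in transgenic and 0.94, 0.34 and 0.51 in wild type mice. The median of transgenic minus wild type site difference was then -0.53, -0.22 and -0.24. Without the mice with muscle transcripts, transgenic mouse 1 and wild type mice 1 and 3, it was -0.51, -0.26 and -0.14. The part of the pancreas, muscle and fat transcripts in the other results was not tested.

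The genes of the ligand and its receptor did not pass the test between the nodes. Tnfsf8 was at 6.38 to 6.49 in the transgenic mesenteric and at 6.43 to 6.52 in the peripheral nodes, with a difference of -0.05 ± 0.08 (SE; limma adjusted p = 0.862). Tnfrsf8 was at 5.56 to 5.92 and at 5.35 to 5.96, with a difference of 0.09 ± 0.09 (SE; limma adjusted p = 0.759). Both were dim on these arrays, near the 6.00 that was the median of all probe sets. Among the smallest p for the difference between genotypes were also Usp19, a deubiquitinase gene (-0.71 in transgenic and 0.34 in wild type mice; limma adjusted p = 0.455), and Tmem207 (-0.42 and 0.74; adjusted p = 0.511).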

How the data were processed

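The deposited values were linear intensity values of 45101 probe sets per array, 32 arrays in 1 table; no source used here names the authors' algorithm or scaling. From 15.4% to 18.4% of the values of an array were negative, so some background had been subtracted. Per the labels' protocols, total RNA was column purified and labelled with biotin.

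Intensity was floored at 0 and offset by 16 before log2. After removal of 64 control probe sets, quantile normalization ran over the 8 arrays of a genotype, or over all 16 for the difference between genotypes and for levels across genotypes. The 27022 probe sets whose mean exceeded the 40th percentile were tested with limma 3.58.1 in R 4.3.3 with the mouse as a block, since each mouse gave both nodes; nodes of 1 mouse correlated by -0.08 to 0.25 in their deviations from group means. The difference between genotypes was tested on within-mouse differences. The threshold was a Benjamini-Hochberg adjusted p under 0.05. The fits were tested on simulated data.

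Symbols came from the array's annotation, and 34741 of 34945 probe sets with 1 symbol matched GRCm38.p6. Genes of the 30 lists (387 of 434 entries measured) were represented by 1 probe set, the brightest. Named genes are all germinal centre genes, the 8 smallest transgenic p of the mitosis and S phase lists, the 10 largest called rises and falls, up to 4 per other list, the 8 smallest p for the difference between genotypes, and the CD30 pair. Members and lists were chosen with earlier results of these data known. Promoters came from a RefSeq table.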

Additional observations from a re-analysis of the deposited data

Results flagged for a closer look

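Within groups of 4 mice, 8 of 119 sets of site differences had 1 mouse far from the others by Dixon's test, and chance flags about 1 group in 20. Transgenic mouse 4 was low for the S phase list mean (0.072), for Uhrf1 (0.080) and for Gcsam (0.18). Transgenic mouse 1 was low for the skeletal muscle list mean (-1.25), for Gna13 (-0.12) and for Dnah2 (1.59). Wild type mouse 2 was high for the exocrine pancreas list mean (8.10), and stood apart from the other 3 for the mammary gland list mean (0.19).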

How the results depend on the processing

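The number of calls moved with nearly every choice. Against 34 in transgenic mice, 21 were called with a pseudocount of 1, 103 with 64, 76 with a common median, 496 with values as deposited (with the median of all probe sets at -0.25), 1 with no filter, 69 with a filter at the 60th percentile, 121 with an intensity trend and 206 with no replicate block. Against 234 in wild type mice, these were 64 and 551 with a pseudocount of 1 and 64, 1 with no filter, 519 at the 60th percentile, 692 with the trend and 517 with no replicate block. Leaving out each mouse gave 0 to 18 and 15 to 87. Of the 34, 33 were still called without the block. Without the mice with pancreas transcripts 0 and 87 were called, and without those with muscle transcripts 18 and 0; both were chosen after seeing the data. The difference between genotypes, 0 calls, had 1 with a common median, 5 as deposited, 1 at the 60th percentile, 7 with no replicate block, 1 with the trend and 2 without the muscle mice. The cause was not tested.

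As deposited, the transgenic medians were 0.028 for germinal centre, 0.26 for mitosis and 0.047 for S phase genes, and 0.27, 0.51 and 0.29 relative to all probe sets. Wild type medians were 0.23 and 0.30 with a common median for germinal centre and S phase, 0.13, 0.74 and 0.20 as deposited, and for mitosis 0.71 with a pseudocount of 64 and 0.77 over all probe sets of a gene. The genotype difference turned to 0.0044 for germinal centre and 0.0040 for S phase genes with a common median. Leaving out each mouse gave medians of it from -0.21 to -0.055 for germinal centre, -0.48 to -0.28 for mitosis and -0.17 to -0.030 for S phase genes.

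Genes near 0 turned sign in transgenic mice: as deposited Bcl6 (-0.13), Fas (-0.16), Gna13 (-0.26), Plxnb2 (-0.080), Irf4 (-0.047) and Tnfrsf8 (-0.20); with a common median Irf8 (0.091); without the pancreas mice Lmo2 (0.048), Irf8 (0.022) and Ighm (0.031, 0.13 and 0.10 by probe set); without the muscle mouse Irf8 (0.0049) and Ighm (0.058, 0.077, 0.25 and 0.19); and leaving out each mouse in turn Efnb1 (-0.31 to 0.035), Gna13 (-0.0051 to 0.055), Irf8 (-0.013 to 0.0076) and the Ighm probe sets (-0.31 to 0.058, -0.27 to 0.077, -0.31 to 0.25 and -0.42 to 0.19). The 4 mice per group, and signal near background for dim genes such as Tnfrsf8 and Il21, limit the precision.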
